A study of Danio rerio with 6 samples.

Results

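The regions described here are the peaks of chromatin immunoprecipitation sequencing (ChIP-seq) on zebrafish chromosome 4 whose midpoint lies at 25 Mb or beyond on the Zv9 assembly, called the distal stretch below. They were chosen by a rule of position, set with earlier results of these data known, and number 693 of the 114300 peaks in 3 deposited lists. Of them, 332 were peaks of acetylated histone H3 lysine 27 (H3K27ac) in a melanoma cell line, of 50338 in that list. Another 263 were H3K27ac peaks of a primary melanoma, of 59760, and 98 were peaks of the transcription factor sox10 in the cell line, of 4202. The stretch ran from 25000000 to 62066132, the last peak end on the chromosome, and so covered 37.1 Mb, or 2.73% of the span reached by peaks over the 25 chromosomes.

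The long arm of zebrafish chromosome 4 is known as an unusual stretch of the genome. It is largely heterochromatic, replicates late, is rich in repeats and in multicopy gene families such as NLR immune genes and zinc finger genes, and carries a sex-linked region in wild strains. H3K27ac is laid down by the acetyltransferases p300 and CBP and marks active promoters and enhancers, and its peaks are commonly read as a map of active regulatory sites. Sox10 is a high-mobility-group transcription factor that specifies the neural crest and keeps the melanocyte lineage. The sources used here do not say where the long arm begins on Zv9, and the point of 25 Mb is a rule of position and not a landmark taken from an annotation.

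The study asked how H3K27ac and sox10 are distributed in zebrafish melanoma. The cell line, zcrest, had been passaged more than 20 times and came from a founder fish labelled p53/BRAF/Na with crestin:EGFP and MiniCoopR alone. The primary tumor was freshly dissected from a p53/BRAF/Na fish carrying MiniCoopR;mitf:EGFP, so both sources share the p53/BRAF/Na background and MiniCoopR, a vector with a mitfa minigene. Na denotes nacre, the loss of mitfa, and crestin:EGFP is a reporter of neural crest identity. The cell line is 1 line and the tumor 1 tumor taken in bulk, with other cell types not removed. In such bulk material, fewer cells carrying a mark and less of the mark per cell cannot be told apart.

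Each group had 1 library, so no comparison below has a replicate check and none carries a p-value. Intervals are exact 95% intervals, Poisson for counts and binomial (Clopper-Pearson) for shares. They cover counting error only and are too narrow where neighbouring peaks depend on each other. The lists do not give the read depth, which affects how many peaks are called. Densities were therefore compared within a list, between the distal stretch, the first 25 Mb of chromosome 4 and the 24 other chromosomes. The lists name no genes, so the identity of the 2 sources was not checked against marker genes.

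Called H3K27ac peaks were sparse in the distal stretch in both sources. The cell line list held 8.96 H3K27ac peaks per Mb there (interval 8.02 to 9.97), against 41.6 in the first 25 Mb of the same chromosome and 37.8 over the other chromosomes. The tumor list held 7.10 peaks per Mb (6.26 to 8.01), against 89.5 and 44.2. Both densities were lower than on any of the 24 other chromosomes, where the lowest values were 28.1 per Mb on chromosome 12 in the cell line and 35.3 on chromosome 16 in the tumor. These are densities of called peaks: reads from repeats may not be placed on the assembly, and the part of mappability in the low counts was not tested.

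The contrast with the first 25 Mb was larger in the tumor list. There the first 25 Mb held 12.6 times as many peaks per Mb as the distal stretch, against 4.65 times in the cell line. Against the other chromosomes the distal density was 0.160 times in the tumor and 0.237 times in the cell line. The first 25 Mb itself was at 2.02 times the density of the other chromosomes in the tumor and at 1.10 times in the cell line, so part of the first contrast lay on the proximal side.

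**Figure D1:**
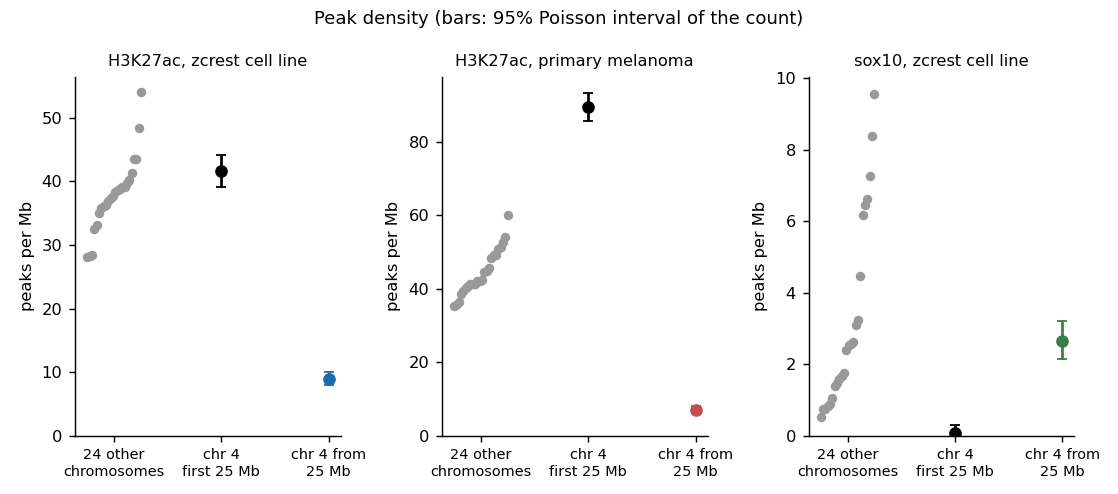
Peaks per Mb (vertical axis) in each deposited list. Grey points are the 24 other chromosomes in order of density, the black point is the first 25 Mb of chromosome 4 and the coloured point the distal stretch, with 95% Poisson intervals of the count as bars. Both H3K27ac points of the distal stretch (8.96 and 7.10) lie below every grey point, and the sox10 point (2.64) lies among them.

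No other chromosome was as sparse beyond the same coordinate, although 25 Mb is not an equivalent position on chromosomes of other lengths. Cut at the same 25 Mb, the other 24 chromosomes had between 19.2 (chromosome 22) and 63.2 (chromosome 19) cell line peaks per Mb beyond the cut. In the tumor list they had between 28.0 (chromosome 25) and 64.5 (chromosome 19). The covered share of the sequence was also lowest in the distal stretch. Cell line peaks covered 99.2 kb or 0.268% of the distal stretch, against 1.48% of the first 25 Mb and 1.49% of the other chromosomes. Tumor peaks covered 74.5 kb or 0.201%, against 2.72% and 1.33%.

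The number of called H3K27ac peaks fell between the windows on either side of the 25 Mb point. That point was set with earlier results of these data known, so the fall beside it is not an independent result. The 1 Mb window from 24 to 25 Mb held 52 cell line and 61 tumor H3K27ac peaks, and the next window, from 25 to 26 Mb, held 13 and 8. Beyond it, the 37 full windows of the distal stretch had a median of 8 cell line peaks (lowest 2, highest 26) and 5 tumor peaks (lowest 0, highest 30). In the first 25 Mb the medians were 37 and 76 peaks, and every window there held at least 10 cell line and 35 tumor peaks. Cell line counts were also low before the point, with 16, 15 and 10 peaks in the windows from 18 to 21 Mb. The tumor list had 58, 48 and 35 peaks in those windows. Among 1282 full windows of the other chromosomes, 4.06% held 8 or fewer cell line peaks and 2.34% held 5 or fewer tumor peaks. No window of the distal stretch was free of cell line H3K27ac, and 2 full windows, from 33 to 34 Mb and from 40 to 41 Mb, were free of tumor H3K27ac.

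The peaks nearest to the cut are given for both sides. Fold enrichment, here and below, is the authors' value for each peak, a ratio over the peak caller's own background, and is used only within a list. The last cell line peak before the cut was chr4:24999659-25000108 (4.33-fold) and the first after it chr4:25122185-25122889 (5.01-fold). In the tumor they were chr4:24999535-24999933 (17.9-fold) and chr4:25037240-25037695 (6.39-fold). The nearest sox10 peaks were chr4:7450345-7450403 (5.83-fold) and chr4:25057592-25057642 (4.94-fold).

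**Figure D2:**
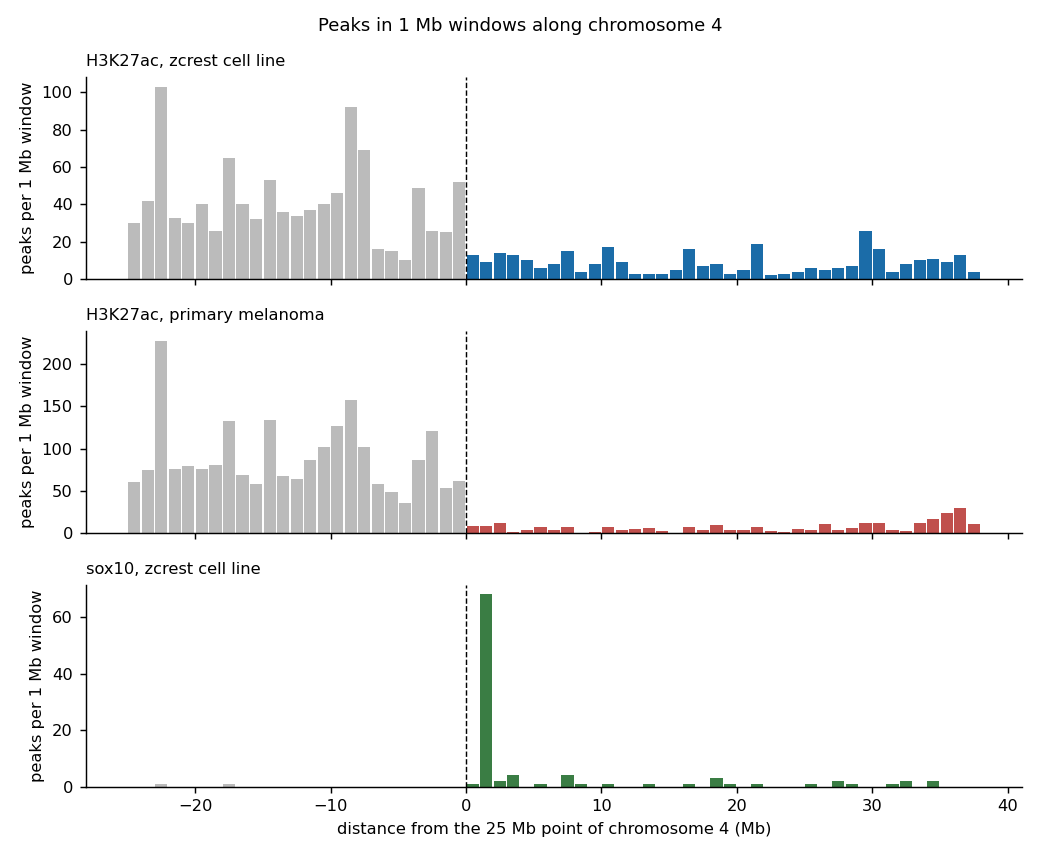
Number of peaks in each 1 Mb window of chromosome 4 (vertical axis) against the distance of the window from the 25 Mb point in Mb (horizontal axis), for the 3 lists. Grey bars lie before the point and coloured bars after it. H3K27ac stands at 52 and 61 peaks in the last grey window and at 13 and 8 in the first coloured one. Among the coloured bars, tumor H3K27ac is highest in the last full windows (up to 30 peaks), still below every grey bar (lowest 35). In the sox10 list, 68 of the 98 peaks stand in 1 window.

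Density was not even along the distal stretch. Cell line H3K27ac was at 10.0 peaks per Mb from 25 to 35 Mb, 7.40 from 35 to 45 Mb, 8.30 from 45 to 55 Mb and 10.6 from 55 Mb to the end. Tumor H3K27ac was at 5.10, 4.60 and 5.50 peaks per Mb in the first 3 of these and at 15.7 (interval 12.9 to 18.9) in the last. The last 7.07 Mb thus held 111 of the 263 tumor peaks and 75 of the 332 cell line peaks. Without it, the tumor density was 5.07 per Mb and that of the cell line 8.57.

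The fullest windows differed in part between the sources. In the cell line they were 54 to 55 Mb (26 peaks), 46 to 47 Mb (19), 35 to 36 Mb (17), and 41 to 42 and 55 to 56 Mb (16 each). The first of them held a group of 8 cell line peaks within 11.6 kb, chr4:54689130-54700744. In the tumor the fullest were 61 to 62 Mb (30 peaks), 60 to 61 Mb (24), 59 to 60 Mb (17), and 27 to 28 and 54 to 55 Mb, among 4 windows tied at 12. The window from 61 to 62 Mb held 13 cell line peaks. The windows from 54 to 55 Mb and from 55 to 56 Mb, among the fullest of the cell line, held 12 tumor peaks each.

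Much of the stretch carried no H3K27ac peak of either source over long distances. Stretches of more than 200 kb without a peak of either list numbered 54 and made up 52.2% of the distal stretch. The share was 7.44% in the first 25 Mb and 17.4% over the other chromosomes, with 28.8% on chromosome 1 as the highest. The longest 3 were chr4:47166666-48029381 (863 kb), chr4:40505370-41101294 (596 kb) and chr4:44151883-44739214 (587 kb), and none of them held a sox10 peak. Of the 37 full 1 Mb windows of the distal stretch, 18 held no sox10 peak, so this absence is little information. Elsewhere the longest stretch without a peak of either H3K27ac list was 1001 kb.

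Neighbouring acetylated peaks were far apart. The median gap between neighbouring cell line peaks was 35862 bases (interval 24531 to 50738), against 2253 in the first 25 Mb and 2025 on the other chromosomes. In the tumor it was 45840 bases (30694 to 66027), against 2574 and 4556. The highest median of another chromosome was 3852 bases in the cell line (chromosome 22) and 6759 in the tumor (chromosome 16). Gaps over 100 kb made up 35.3% of gaps in the cell line and 34.0% in the tumor, against 7.04% and 5.08% on the other chromosomes.

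Close groups of peaks were present but fewer. H3K27ac often appears as several peaks around an active promoter or enhancer, since the mark sits on the nucleosomes that flank an open site. Of the gaps between cell line peaks, 29.0% were under 1 kb, against 43.9% on the other chromosomes, and in the tumor 16.0% against 24.8%. Both shares were lower than on any of the 24 others. When peaks less than 1 kb apart were joined into loci, the cell line had 236 loci, 177 of them with 1 peak, 38 with 2 and 21 with 3 or more. The tumor had 221 loci, 188 with 1 peak, 26 with 2 and 7 with 3 or more. Single-peak loci thus made up 75% and 85.1% of loci, against 57.1% and 77.4% on the other chromosomes. The density of loci was also the lowest, at 6.37 per Mb in the cell line (21.2 on the other chromosomes) and 5.96 in the tumor (33.3).

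**Figure D3:**
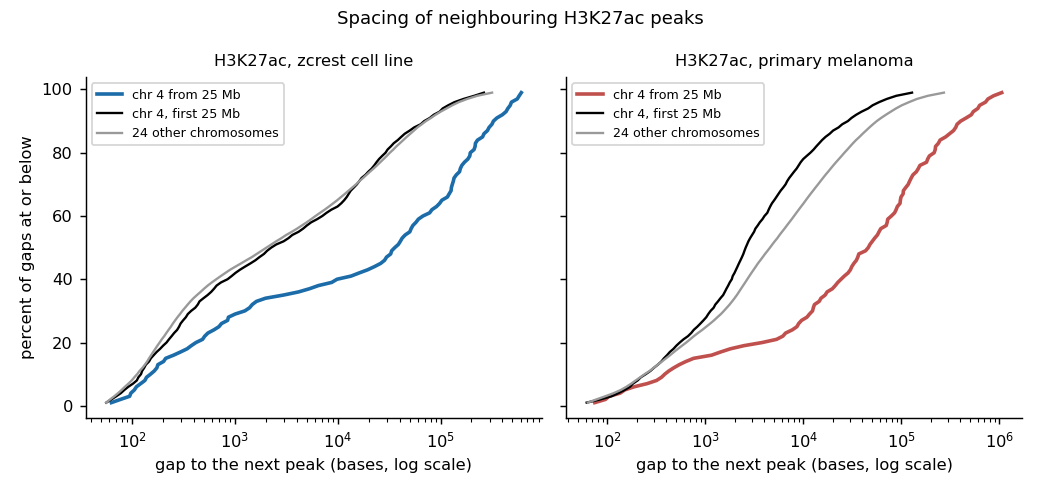
Cumulative share of gaps (vertical axis, percent) by the gap between neighbouring H3K27ac peaks in bases (horizontal log axis), from the 1st to the 99th percentile, for the cell line and the tumor. The coloured line of the distal stretch lies to the right of the black (first 25 Mb) and grey (24 other chromosomes) lines. The exception is in the tumor, where it meets the black line among the shortest gaps (104 against 110 bases at percentile 3). Its median is at 35862 bases in the cell line and 45840 in the tumor, against 2025 and 4556 in grey.

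The peaks themselves were of low enrichment within their lists, and narrow in the cell line and less clearly so in the tumor. Cell line peaks had a median width of 216 bases (interval 202 to 229; middle 50% 162 to 332), against 269 in the first 25 Mb and 297 on the other chromosomes, none of which had a median below 269. Tumor peaks had a median width of 219 bases (208 to 242), against 241 and 239, and the lowest other chromosome was at 228. The interval of the tumor reached this range and included both 241 and 239. Among tumor peaks with a −log10 q of 10 or more the order was the opposite, 364 bases in the distal stretch against 323 on the other chromosomes.

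Median fold enrichment was 4.89 in the cell line, against 5.82 in the first 25 Mb and 5.31 on the other chromosomes, where only chromosome 19 (4.67) was lower. In the tumor it was 4.77, against 5.52 and 5.57, below all 24 others. Of the cell line peaks, 13 (3.92%) belonged to the highest 10% of their list by fold enrichment, and of the tumor peaks 15 (5.70%). The lowest shares of another chromosome were 7.44% and 8.23%. Broad peaks were not missing: 11 cell line peaks (3.31%) and 4 tumor peaks (1.52%) were wider than 1000 bases, against 4.58% and 1.12% elsewhere.

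A few peaks ranked high within their lists. The highest cell line peak (22.2-fold) exceeded the highest peak of chromosomes 11 (21.3-fold) and 15 (22.1-fold) alone among the other chromosomes. The highest tumor peak (21.7-fold) was below the highest peak of every other chromosome, the lowest of which was 24.2-fold on chromosome 17. In the cell line the highest were chr4:31990531-31991064 (22.2-fold, rank 73 of its list), chr4:34382041-34382604 (21.7-fold, rank 87) and chr4:29603338-29603628 (17.5-fold). The first of these overlapped tumor H3K27ac, as did the second, while the third lay 28629 bases from the nearest tumor peak. The next 3 were chr4:46521360-46521830 (15.2-fold), chr4:44777922-44778518 (13.3-fold) and chr4:32114695-32115116 (13-fold). The remaining 4 of the highest 10 were chr4:59791913-59792212, chr4:62065772-62066132 (both 12.6-fold), chr4:59352707-59352930 (12.3-fold) and chr4:55152325-55152674 (11.8-fold). Of the 10, 5 overlapped a tumor peak and 0 carried a sox10 peak. In the highest of 4 equal classes of the list by fold enrichment, 46.0% of distal peaks overlapped a tumor peak. On the other chromosomes 64.4% of that class did. Over the whole lists, 277 of 4202 sox10 peaks lay on any of the 50338 cell line peaks, so 0 of 10 is little information.

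In the tumor the highest peaks were chr4:26425742-26426141 (21.7-fold, rank 231), chr4:27195353-27195861 (21.4-fold, rank 259) and chr4:54539920-54540416 (19.6-fold). The first and second overlapped cell line H3K27ac, and the third lay 104582 bases from the nearest cell line peak. Below them came chr4:26426527-26427133 (16.4-fold), chr4:47166403-47166665 (16.2-fold) and chr4:27193593-27193949 (16.1-fold). The other 4 were chr4:59352482-59352987 (13.6-fold), chr4:46365816-46366056 (13.4-fold), chr4:53290840-53291252 (13.1-fold) and chr4:62024966-62026263 (12.3-fold, 1298 bases wide). Of these 10, 6 overlapped a cell line peak and 0 carried a sox10 peak. In the highest of 4 equal classes of this list, the shares overlapping a cell line peak were 55.8% in the distal stretch and 70.9% on the other chromosomes. Over the whole lists, 18 of 4202 sox10 peaks lay on any of the 59760 tumor peaks.

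A smaller share of cell line peaks overlapped a tumor peak here than in the first 25 Mb or on the other chromosomes. From the tumor side, the share was below that of the other chromosomes but above that of the first 25 Mb. An overlap of at least 1 base was counted as shared. Of the 332 cell line peaks, 90 (27.1%, interval 22.4% to 32.2%) overlapped a tumor peak, against 47.9% over the whole list, 61.1% (58.1% to 64.1%) in the first 25 Mb and 47.7% on the other chromosomes. No other chromosome was below 41.2% (chromosome 9). Of the 263 tumor peaks, 88 (33.5%, 27.8% to 39.5%) overlapped a cell line peak, against 39.8% over the whole list, 26.8% in the first 25 Mb and 40.4% on the other chromosomes. Of these, only chromosome 11 (32.8%) was lower. The density of the other list, to which such shares can be tied, was low in the distal stretch, and its part in these shares was not tested.

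Counted without regard to side, the share of loci with both sources was lower than in either part compared. With peaks of both lists less than 1 kb apart joined, the distal stretch had 376 loci, of which 77 (20.5%, 16.5% to 24.9%) held both sources, 158 the cell line alone and 141 the tumor alone. The share with both was 29.5% in the first 25 Mb and 36.9% on the other chromosomes. Loci of the cell line alone made up 42.0% in the distal stretch, 6.01% in the first 25 Mb and 17.2% elsewhere. The lists shared 18.6 kb of a joint 155 kb, a Jaccard index of 0.120, against 0.184 and 0.217. Such values can also be tied to the densities of both lists, whose part in them was not tested.

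Cell line peaks without a tumor partner were often far from any tumor peak. Their median distance to the nearest one was 34.1 kb, and 73 of 242 (30.2%) lay more than 100 kb away, against 1.37 kb and 2.75% on the other chromosomes. For unshared tumor peaks the distance to the nearest cell line peak was 25.9 kb, with 31 of 175 (17.7%) beyond 100 kb, against 6.84 kb and 3.51%. In the first 25 Mb the values were 0.533 kb and 0% for the cell line and 6.32 kb and 2.44% for the tumor. Such distances depend on the spacing of the other list, which was wide in the distal stretch, and its part in them was not tested.

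Shared peaks were the wider ones, here as elsewhere. The rule of at least 1 shared base is met more easily by a wider peak, and its part in this difference was not tested. Among cell line peaks, the shared ones were 296 bases wide at the median and 5.18-fold enriched, and the unshared ones 198 bases and 4.85-fold. Among tumor peaks the values were 304 bases and 5.36-fold for the shared ones and 208 bases and 4.65-fold for the rest. On the other chromosomes the shared cell line peaks had medians of 406 bases and 5.97-fold (233 bases and 4.89-fold unshared), and the shared tumor peaks 310 bases and 6.96-fold (208 bases and 4.91-fold unshared). Each whole list was then divided into 4 classes of equal size by width. In the widest class of the cell line list the distal stretch had 37 peaks, of which 25 (67.6%, 50.2% to 82.0%) were found in the tumor. The other chromosomes had 75.2% in that class, inside the interval. In the narrowest class, which held 135 of the 332 peaks, 20 were found in the tumor (14.8%, 9.29% to 21.9%), against 26.7% on the other chromosomes. The classes between had 25% (16.9% to 34.7%) against 36.2% and 33.3% (21.7% to 46.7%) against 52.5%, so the value of the other chromosomes lay above the interval in all but the widest class. In the tumor list the order was not the same in each class. From narrowest to widest, the distal shares were 29.3% (19.4% to 41.0%), 19.1% (10.6% to 30.5%), 26.4% (15.3% to 40.3%) and 58.2% (45.5% to 70.2%). The other chromosomes had 22.0%, 29.2%, 43.1% and 67.4%, outside the interval in the third of these classes alone.

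With 4 classes of equal size by fold enrichment, the distal share of the cell line list lay below that of the other chromosomes in each class, with 21.8% against 41.8% in the lowest, 26.4% against 36.7% in the second, 22.4% against 48.0% in the third and 46.0% against 64.4% in the highest. The value of the other chromosomes was outside the interval of the distal stretch in all 4. In the tumor list the distal share was 28.3% (19.7% to 38.2%) in the lowest class, against 19.1% elsewhere, and 29.0% against 29.8% in the second. In the third and the highest it was 30.8% (18.7% to 45.1%) and 55.8% (39.9% to 70.9%), against 41.6% and 70.9%. The value of the other chromosomes was below the distal interval in the lowest class, inside it in the second and in the third, and at its upper bound in the highest.

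**Figure D4:**
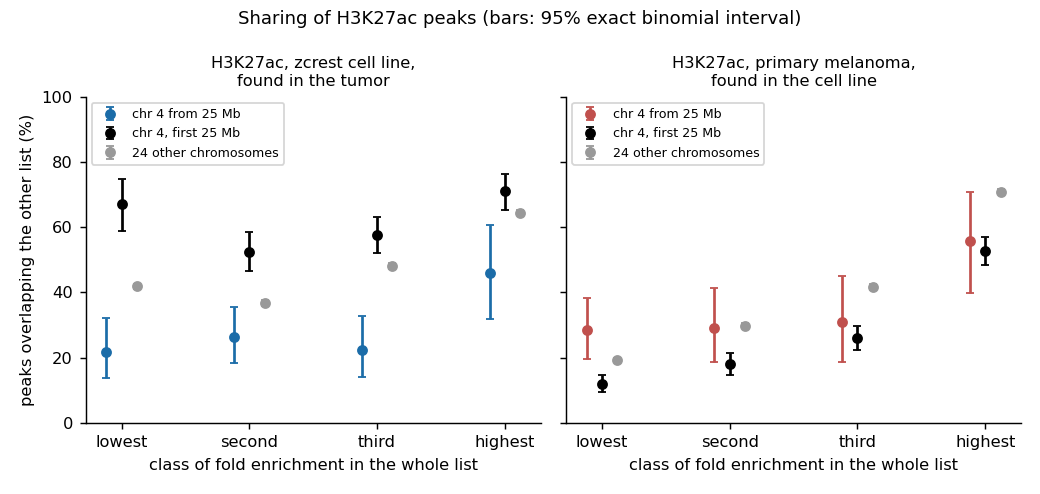
Share of H3K27ac peaks that overlap a peak of the other source (vertical axis, percent), by class of fold enrichment in the whole list, 4 classes of equal size (horizontal axis), for cell line peaks and for tumor peaks. Colour is the distal stretch, black the first 25 Mb and grey the 24 other chromosomes, with exact 95% binomial intervals as bars (smaller than the point where grey). In the cell line the coloured points lie below the grey ones in all 4 classes (46.0% against 64.4% in the highest), and in the tumor the coloured point of the lowest class (28.3%) lies above the grey one (19.1%).

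Sharing was not even along the stretch. From the cell line side it was 20.0% from 25 to 35 Mb, 21.6% from 35 to 45 Mb and 22.9% from 45 to 55 Mb, and 46.7% (35 of 75, 35.1% to 58.6%) from 55 Mb to the end. This last part is also where the tumor list was densest. From the tumor side the share was 39.2%, 30.4%, 34.5% and 31.5% in the same order, with intervals that overlapped. Without the part from 55 Mb, the shares were 21.4% for the cell line and 34.9% for the tumor.

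The overlapping peaks formed 95 pairs, with a median overlap of 170 bases. The pairs with the smallest sum of ranks by fold enrichment lay in 3 places. The cell line peak chr4:27195304-27195783 (11.7-fold, rank 12 of the 332) overlapped the tumor peak chr4:27195353-27195861 (21.4-fold, rank 2 of the 263). In the same place chr4:27193673-27193877 (7.63-fold) overlapped chr4:27193593-27193949 (16.1-fold). The cell line peak chr4:26425297-26426664 (10.3-fold, 1368 bases wide) overlapped 3 tumor peaks, among them the first and the fourth of that list in the stretch. The third place was chr4:59352707-59352930 in the cell line (12.3-fold), inside chr4:59352482-59352987 in the tumor (13.6-fold).

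Sox10 showed another pattern on this chromosome than H3K27ac. Of the 100 sox10 peaks on chromosome 4, 98 lay in the distal stretch and 2 in the first 25 Mb. The density was 2.64 per Mb (2.15 to 3.22) in the former and 0.080 (0.00969 to 0.289) in the latter, against 3.17 on the other chromosomes. Of the 24 others taken whole, 15 had a lower density and 9 a higher one. The distal stretch thus stood within their range (0.530 to 9.56), while the first 25 Mb stood below this range of whole chromosomes. Uneven splits at 25 Mb were also found elsewhere. Beyond that point lay 234 of 238 sox10 peaks on chromosome 25 and 156 of 161 on chromosome 3, but 9 of 168 on chromosome 13. Densities beyond the cut ran from 0.287 to 17.3 per Mb on the others, with 18 below the distal stretch and 6 above.

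Most of these peaks were packed into 1 window. The window from 26 to 27 Mb held 68 sox10 peaks, and without it the density was 0.832 per Mb (0.561 to 1.19). Such packing was common in this list: clusters of at least 5 peaks less than 5 kb apart held 67.3% of the sox10 peaks of the distal stretch and 83.2% of those on the other chromosomes, where 12 windows held 68 peaks or more. In the window from 26 to 27 Mb, 66 peaks formed 3 clusters, within 47.1 kb from 26153330 to 26200427. They were chr4:26153330-26154502 (5 peaks), chr4:26167286-26178419 (27 peaks) and chr4:26184559-26200427 (34 peaks). Median fold enrichments were 3.56, 3.47 and 4.81, and sox10 peaks filled 51.2%, 40.8% and 19.5% of the bases. Within clusters the summits of neighbouring peaks were 367 bases apart at the median (middle 50% 192 to 513, range 100 to 1811).

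No cell line H3K27ac peak was found inside them or within 100 kb on either side. The tumor list had 1 peak there, chr4:26154099-26154308 (4.44-fold), under the sox10 peak chr4:26154153-26154233 (3.94-fold). That sox10 peak was the only 1 of the 98 on tumor H3K27ac (1.02%, 0.0258% to 5.55%, against 0.428% over the whole list). Over the whole list, 6.59% of sox10 peaks lay on cell line H3K27ac. Stretches of more than 200 kb without a peak of either H3K27ac list made up 52.2% of the distal stretch. The part of this sparseness in the absence of cell line H3K27ac around the clusters was not tested. The genome sequence under the clusters was not used here.

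**Figure D5:**
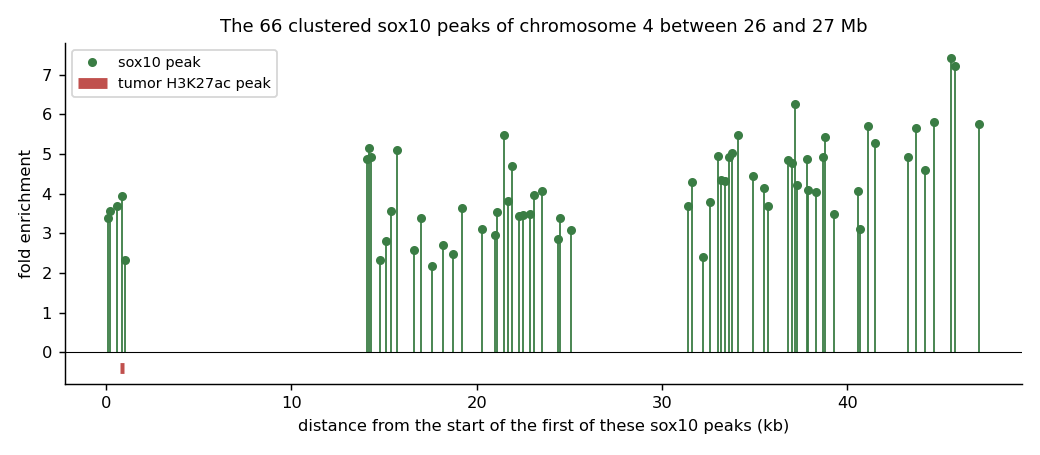
Fold enrichment (vertical axis) of the 66 clustered sox10 peaks between 26 and 27 Mb by the distance of their summits from the start of the first peak in kb (horizontal axis). The red mark under the axis is the tumor H3K27ac peak there. The peaks form 3 clusters over 47.1 kb, none is above 7.42-fold, and no cell line H3K27ac peak lies within 100 kb.

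The other sox10 peaks were scattered. Outside the 3 clusters lay 32 peaks, of which 18 were isolated and 14 lay in 7 groups of 2. This was 0.863 per Mb, higher than on 22 of the 24 other chromosomes (median 0.423, highest 1.41 on chromosome 19) and against 0.080 in the first 25 Mb. Chromosome 2, counted among the 22, had the same value to 3 digits. At least 1 sox10 peak was present in 19 of 37 full windows (51.4%), against 2 of 25 (8%) in the first 25 Mb and 31.6% of windows on the other chromosomes. Their median fold enrichment was 5.30 and their median width 68 bases, against 5.29 and 63 for such peaks on the other chromosomes.

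Of the 98 sox10 peaks, 3 (3.06%, 0.636% to 8.69%) lay on cell line H3K27ac, against 6.59% over the whole list. All 3 were outside the clusters, where the share was 9.38% (1.98% to 25%), against 14.4% on the other chromosomes, inside the interval. The first was chr4:53048770-53048828 (4.04-fold) on the acetylated peak chr4:53048653-53050097, which is 1445 bases wide and was also found in the tumor. The second was chr4:57968007-57968073 (6.58-fold) on chr4:57967929-57968273. The third was chr4:59659728-59659807 (9.02-fold, the highest sox10 value of the stretch) on chr4:59659687-59659883. The acetylated peaks under the last 2 were not found in the tumor, and their fold enrichments, 4.89 and 4.67, were at or below the median of the stretch. The remaining scattered sox10 peaks had no H3K27ac peak under them. The median distance to cell line H3K27ac was 25.3 kb over all 32, against 19.7 kb on the other chromosomes.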

How the data were processed

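H3K27ac and sox10 were measured by ChIP-seq in 6 libraries (3 ChIP, 3 input, 1 per group), and the analysis rests on the 3 ChIP peak lists. Bowtie alignment to Zv9 and peak calling with MACS2 2.0 are named in the submitters' processing notes. The control, the thresholds and any pooling were not given in the sources used here. Each deposited list gives a position, a summit, a score, a fold enrichment, which is a ratio to background, and −log10 of the p-value and q-value per peak. The highest q was 0.0497. The authors' scores were not used. Densities are per Mb of assembly, and assembly gaps, repeats and mappability were not examined here.

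Positions are 1-based on Zv9, and chromosome ends are the last peak end over the 3 lists. Analyses used Python 3.11.15, numpy 2.4.6, pandas 2.3.3, scipy 1.17.1 and matplotlib 3.10.9. Interval functions were tested on simulated data. Peaks on the mitochondrial sequence were left out of the values for the other chromosomes but are included in those over a whole list. Intervals of medians are order-statistic intervals. Named peaks are the 10 highest by fold enrichment per H3K27ac list, the 5 fullest windows, the 3 longest empty stretches, the 5 leading shared pairs, sox10 clusters of at least 5 peaks and sox10 peaks on H3K27ac. The members and these rules were chosen with earlier results of these data known. Alternatives covered the start of the region, q-value, overlap rule, joined peaks, occupied windows and equal list length.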

Additional observations from a re-analysis of the deposited data

Results flagged for a closer look

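The share of H3K27ac peaks found in the other source differed in direction between the lists when the distal stretch was set against the first 25 Mb of chromosome 4. In the cell line the difference was −34.0 percentage points (27.1% against 61.1%), and in the tumor it was 6.70 percentage points (33.5% against 26.8%). With 1 library per source the difference between the 2 was not tested. Against the other chromosomes both shares were lower (47.7% and 40.4% there). The tumor list was denser than the cell line list in the first 25 Mb (89.5 and 41.6 peaks per Mb) and less dense in the distal stretch (7.10 and 8.96), and the part of density in the flagged values was not tested. These densities stand side by side across lists whose read depths are not known, and depth affects how many peaks are called.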

How the results depend on the processing

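No paired analysis was possible because each group has 1 library and no result comes from a test; for the same reason no replicate could be left out. Of 107 alternatives to 13 values, 71 stayed within 1.5 times of a density or inside the 95% interval of a median or share, 15 of them without any change. Some of these 15 could not have changed. Every distal window held a peak, so the setting of occupied windows left nothing out. Starts at 20 and 24 Mb kept the same 98 sox10 peaks, and so the same sox10 widths, gaps and shares. Distal H3K27ac density was below that of the other chromosomes in 20 of 20 settings (0.115 to 0.333 times), both shares of shared peaks in 24 of 24 and the median gap above it in 14 of 14. Median width was below it in 13 of 14. Each of these tallies includes the reported values themselves, and that of density also includes the setting of occupied windows.

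Starting at 20 Mb gave median gaps of 15848 (cell line) and 8382 bases (tumor), 14.7 tumor peaks per Mb and shares of 35.6% and 27.1%. Starting at 24 Mb gave a tumor gap of 29298. Starting at 30 Mb left 23 sox10 peaks, at 0.717 per Mb, with a median width of 70.0, a gap of 916963, 13% on cell line and 0% on tumor H3K27ac. With −log10 q limited to at least 5, cell line width was 246 bases and sox10 density 1.75. With at least 10, densities were 3.40, 2.86 and 0.540 (cell line, tumor, sox10), H3K27ac widths 298 and 364, gaps 187224, 116662 and 1758, the tumor share 25.5% and sox10 shares 0% and 0%. Joining peaks less than 1 kb apart gave 0.971 sox10 loci per Mb. That is above the 0.668 of the other chromosomes, whereas the count of peaks was below theirs.

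Shared H3K27ac peaks were 19.9% and 25.1% (cell line, tumor) by summit, 15.4% and 20.5% with at least 50% overlapped, and 34.6% of cell line peaks within 500 bases. Chosen after seeing the data were the settings without the window from 26 to 27 Mb (sox10 density 0.832, width 66.5, gap 830594, 10.0% on cell line and 0% on tumor H3K27ac) and without the stretch from 55 Mb (cell line share 21.4%). The shifts under stricter q-values and shorter regions come with fewer peaks; the cause of the others was not tested. Unknown depth limits every count, and sox10 shares rest on 3 and 1 peaks.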
